A study of Rattus norvegicus with 20 samples.

Results

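The 10 genes described here are effectors of neuronal activity, among the 17168 genes measured in the hippocampus of female rats: Arc, Homer1, Nptx2, Plk2, Npas4, Btg2, Ier2, Dusp1, Dusp6 and Ptgs2. They were taken by gene symbol as a known class, and all 10 had a row in both deposited tables and a mean of at least 10 estimated counts in both. Expression was measured by RNA sequencing of hippocampi from 20 rats, all female and 4 months of age. The genotype comparison set 5 untreated TgF344-AD transgenic rats (TGNT) against 5 untreated wild-type rats (WTNT), and asked which hippocampal transcripts differ early in this model of Alzheimer's disease. The treatment comparison set 6 TgF344-AD rats fed chow with diazoxide and dibenzoylmethane (DZ/DIB) from day 52 of age until collection (TGTR) against 4 other untreated TgF344-AD rats (TGNT), and asked what the drugs change. TgF344-AD rats carry human Swedish mutant amyloid precursor protein (APPsw) with a further human transgene linked to familial Alzheimer's disease, both under the prion promoter, so the transgenes are not limited to neurons. Every TGNT and TGTR rat carried both, no treated wild-type rats are among these samples, and the TGNT rats of the 2 comparisons are different libraries. The study's methods state that rats were tested on a radial arm maze at 4 months, under food restriction. Some were killed for RNA sequencing at that point. All rats were anaesthetized with ketamine and xylazine and perfused before the hippocampus was frozen. The sources used here give no interval between the last handling or maze test and collection. The labels name the left hippocampus and the study's methods the right.

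Activity-dependent effector genes are switched on within minutes to hours of synaptic firing, when calcium entry through NMDA receptors and voltage-gated channels activates the ERK and CaM kinase cascades and, through them, the transcription factors CREB, SRF and MEF2. The first wave holds transcription factors such as Fos and Egr1 together with effectors that act directly at the synapse. Arc and Homer1 reshape glutamate receptor signalling, Nptx2 clusters AMPA receptors, Plk2 weakens overactive synapses, and the DUSP phosphatases shut the kinases off again. In the hippocampus these transcripts are known for their link to learning and for following the recent experience of the animal.

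Because the members are grouped by a shared mode of induction, their promoters were searched for the sites that such signalling is known to use. RefSeq promoters of assembly GRCr8 (250 bases before to 50 after the start site) were found for 9 of the 10 members, all except Arc. The full cAMP response element (CRE), the CREB site TGACGTCA, was found in 4 of the 9, in Plk2, Btg2, Ier2 and Dusp1, and in 1.83% of all 33469 promoters of the same length, searched on both strands. The first base of the full site lies at -66 in Plk2 and Ier2, at -124 in Dusp1 and at -201 in Btg2, counted from the start site. The 250 bases before the start are printed for these 4 genes, 5′ to 3′ on the strand of the gene, since they are the ones that hold the full site; capitals mark the full site and its core TGACG. They lie at chr2:43702286-43702535 (plus strand), chr13:48087691-48087940 (minus strand), chr19:40399123-40399372 (plus strand) and chr10:17184603-17184852 (plus strand) in GRCr8, a later build than the rn6 of the count tables.
Plk2: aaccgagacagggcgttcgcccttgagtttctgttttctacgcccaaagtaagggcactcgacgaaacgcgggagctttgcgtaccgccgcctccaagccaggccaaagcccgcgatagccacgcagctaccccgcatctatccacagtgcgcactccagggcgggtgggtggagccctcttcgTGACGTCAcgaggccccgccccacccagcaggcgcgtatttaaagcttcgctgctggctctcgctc
Btg2: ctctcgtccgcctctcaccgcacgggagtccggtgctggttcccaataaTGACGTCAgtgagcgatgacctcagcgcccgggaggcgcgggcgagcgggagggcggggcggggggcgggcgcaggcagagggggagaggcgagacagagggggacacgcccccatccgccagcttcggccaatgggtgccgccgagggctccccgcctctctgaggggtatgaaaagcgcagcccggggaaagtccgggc
Ier2: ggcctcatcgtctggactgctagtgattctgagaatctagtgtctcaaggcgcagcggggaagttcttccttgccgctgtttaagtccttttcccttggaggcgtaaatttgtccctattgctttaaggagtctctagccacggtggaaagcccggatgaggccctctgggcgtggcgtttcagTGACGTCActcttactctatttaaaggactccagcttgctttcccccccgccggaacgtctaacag
Dusp1: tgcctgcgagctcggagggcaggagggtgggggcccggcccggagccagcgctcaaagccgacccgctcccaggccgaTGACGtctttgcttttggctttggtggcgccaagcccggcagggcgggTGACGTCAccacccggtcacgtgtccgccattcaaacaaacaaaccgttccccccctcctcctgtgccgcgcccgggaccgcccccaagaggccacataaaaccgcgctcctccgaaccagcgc

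The core TGACG, which is part of each full site, was found in 5 of the 9 promoters, the fifth being Nptx2 at -90, against 21.2% of all promoters. Dusp1 holds a separate core at -172. The AP-1 site TGACTCA was found in 0 of 9 members and 4.63% of all promoters, and the CArG box, bound by SRF, in 0 of 9 and 1.64%. These are matches of letters in a short window, and many activity-regulated genes also use enhancers that lie outside it.

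The summed estimated counts ranged from 5848458 to 9926088 per rat in the genotype comparison and from 9215039 to 14175594 in the treatment comparison. Levels are given as RPM, reads relative to a library size that was scaled with TMM factors separately in each table, so levels are compared only within a table. The rarest members were Npas4, with 33 to 92 counts per rat in the genotype comparison, and Ier2, with 34 to 84. App, counted from rat and transgene reads together, read between 1031 and 1160 RPM in WTNT and between 2071 and 2364 RPM in TGNT rats, as the labels require. It read 2216 to 2757 RPM in all 10 rats of the treatment comparison. That comparison has no wild-type rats, so App cannot check its labels within its own table. Tests on all 17168 genes used the quasi-likelihood test of edgeR with Benjamini-Hochberg adjustment, and a gene was called where its adjusted p was below 0.05 and it differed at least 1.5-fold.

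In the genotype comparison, 0 of the 10 effector genes were called by edgeR, DESeq2 or limma. Of all 17168 genes, 0.0116% were called by the quasi-likelihood test of edgeR. Before adjustment, Arc and Dusp6 were lower and Dusp1 was higher in TGNT than in WTNT rats, and no member had groups that did not overlap. These 3 of 10 at an unadjusted p under 0.05 compare with 3.89% of the 11356 genes averaging at least 10 counts (1.99% higher, 1.9% lower). Members with groups that did not overlap numbered 0 of 10, against 0.652% of the same genes (0.335% higher, 0.317% lower). They numbered 1 of 10 without WTNT rat 5 or without TGNT rat 4. Leaving out a rat can only remove overlap, for any gene, and the matching shares of all genes are not given here. The count of 3 at an unadjusted p under 0.05 became 5 without WTNT rat 3. In that fit 986 of all 17168 genes passed the same p, against 358 to 877 with each other rat left out. Of the members, 4 were higher and 6 lower in TGNT rats. Their median log2 fold change was -0.06, against 0.01 over the genes with at least 10 counts. All 10 adjusted p-values of this comparison were 1 in edgeR, so none of the values that follow passed the test across genes.

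Among the synaptic effectors, Arc, which drives removal of AMPA receptors from the synapse, differed most. Its level in WTNT rats 1 to 5 was 130.4, 124, 83.4, 110.1 and 62.0 RPM, and in TGNT rats 1 to 5 it was 73.9, 82.2, 55.0, 70.9 and 77.4 RPM. All 5 TGNT rats lay below 4 of the WTNT rats, and WTNT rat 5 lay among the lower TGNT values. The means were 102 ± 28.8 RPM (SD, n = 5) in WTNT and 71.9 ± 10.3 RPM (SD, n = 5) in TGNT rats. The log2 fold change from edgeR was -0.50 (SE 0.166, 95% interval -0.85 to -0.15, unadjusted p = 0.00843, adjusted p = 1), rank 63 of all genes by p. The exact two-sided permutation test of the RPM means gave p = 0.0794. Without WTNT rat 5 the log2 difference was -0.63, and without WTNT rat 1 it was -0.41.

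Homer1 encodes a scaffold that links metabotropic glutamate receptors to their partners, and its short activity-induced form cannot be told from the long forms in counts per gene. It was 276.8, 341, 339, 310.0 and 280.3 RPM in WTNT rats 1 to 5 and 260.3, 296, 287, 323 and 292 RPM in TGNT rats 1 to 5. The groups overlapped over most of their range, with a log2 fold change of -0.08 (SE 0.0765, 95% interval -0.24 to 0.08, unadjusted p = 0.308 in edgeR), between -0.13 and -0.04 with single rats left out. Nptx2, the secreted pentraxin that gathers AMPA receptors on interneurons, ranged between 23.7 and 43.1 RPM in WTNT and between 23.3 and 32.0 RPM in TGNT rats, a log2 fold change of -0.24 (SE 0.141, unadjusted p = 0.102 in edgeR), -0.36 without WTNT rat 3 (unadjusted p = 0.00843) and -0.15 without WTNT rat 1. Plk2, a kinase of homeostatic synaptic weakening, ranged from 232 to 325 RPM in WTNT and from 243 to 308 RPM in TGNT rats. Its log2 fold change was -0.04 (95% interval -0.23 to 0.15), and its sign turned without WTNT rat 2, WTNT rat 4 or TGNT rat 3.

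The regulators of transcription and growth had higher mean levels in TGNT rats, within wide spreads. Npas4, a transcription factor induced by depolarization in neurons, was 8.95, 3.37, 6.47, 9.05 and 5.58 RPM in WTNT rats 1 to 5 and 11.5, 9.05, 6.34, 4.40 and 8.97 RPM in TGNT rats 1 to 5. Both groups covered nearly the same range, and the log2 fold change was 0.31 (SE 0.272, 95% interval -0.27 to 0.89, unadjusted p = 0.270 in edgeR), 0.11 without WTNT rat 2 and 0.15 without TGNT rat 1. Btg2, an antiproliferative cofactor, ranged from 12.4 to 27.5 RPM in WTNT rats and from 18.5 to 36.7 RPM in TGNT rats. Its highest value was that of TGNT rat 1, and the log2 fold change of 0.41 (SE 0.206, unadjusted p = 0.0658 in edgeR) became 0.22 without that rat and 0.58 without WTNT rat 1 (unadjusted p = 0.00983 in edgeR). Ier2, an immediate early nuclear protein, ranged from 4.31 to 9.11 RPM in WTNT and from 5.32 to 10.5 RPM in TGNT rats. Its log2 fold change was 0.17 (SE 0.222, unadjusted p = 0.451 in edgeR) with TGNT rat 1 and 0.0051 without it, 0.036 without WTNT rat 3 and 0.30 without WTNT rat 1.

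The MAP kinase phosphatases differed in opposite directions. Dusp1, a nuclear phosphatase that acts on p38, JNK and ERK, was 20.9, 14.1, 21.7, 18.3 and 20.2 RPM in WTNT rats 1 to 5. In TGNT rats 1 to 5 it was 36.2, 25.8, 26.4, 18.0 and 26.04 RPM. TGNT rats 1, 2, 3 and 5 lay above every WTNT rat, and TGNT rat 4 lay below 4 of them. The means were 19.0 ± 3.03 RPM (SD, n = 5) in WTNT and 26.5 ± 6.46 RPM (SD, n = 5) in TGNT rats. The fitted log2 difference was 0.49 (SE 0.158, 95% interval 0.15 to 0.83, unadjusted p = 0.00728, adjusted p = 1 in edgeR), rank 48 by p. The exact two-sided permutation test of the means gave p = 0.0397, the only one of the 10 members below 0.05 in this comparison. That permutation p was not adjusted, and the number of members below 0.05 was 0 without each of WTNT rats 1, 2 and 4 and TGNT rats 1, 2, 3 and 5, and 2 without WTNT rat 5.

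Dusp6, a cytoplasmic phosphatase specific for ERK, was 69.9, 81.9, 52.9, 75.4 and 48.0 RPM in WTNT rats 1 to 5 and 51.6, 56.7, 42.7, 55.3 and 55.6 RPM in TGNT rats 1 to 5. WTNT rats 1, 2 and 4 lay above every TGNT rat, and WTNT rats 3 and 5 lay among them. The log2 fold change was -0.32 (SE 0.132, 95% interval -0.60 to -0.04, unadjusted p = 0.0274, adjusted p = 1 in edgeR), and the exact permutation test of the means gave p = 0.111. The unadjusted edgeR p was 0.102 without WTNT rat 2 (log2 difference -0.23), 0.0661 without WTNT rat 4 and 0.0706 without TGNT rat 3. Ptgs2, the inducible cyclooxygenase of prostaglandin synthesis that excitatory neurons express with activity, ranged from 24.5 to 70.1 RPM in WTNT rats and from 29.4 to 53.8 RPM in TGNT rats. The TGNT range lay inside the WTNT range, with a log2 fold change of -0.33 (SE 0.252, 95% interval -0.87 to 0.20, unadjusted p = 0.208 in edgeR). It was -0.53 without WTNT rat 3 (unadjusted p = 0.0169 in edgeR), -0.21 without WTNT rat 1 and -0.22 without WTNT rat 4.

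**Figure D1:**
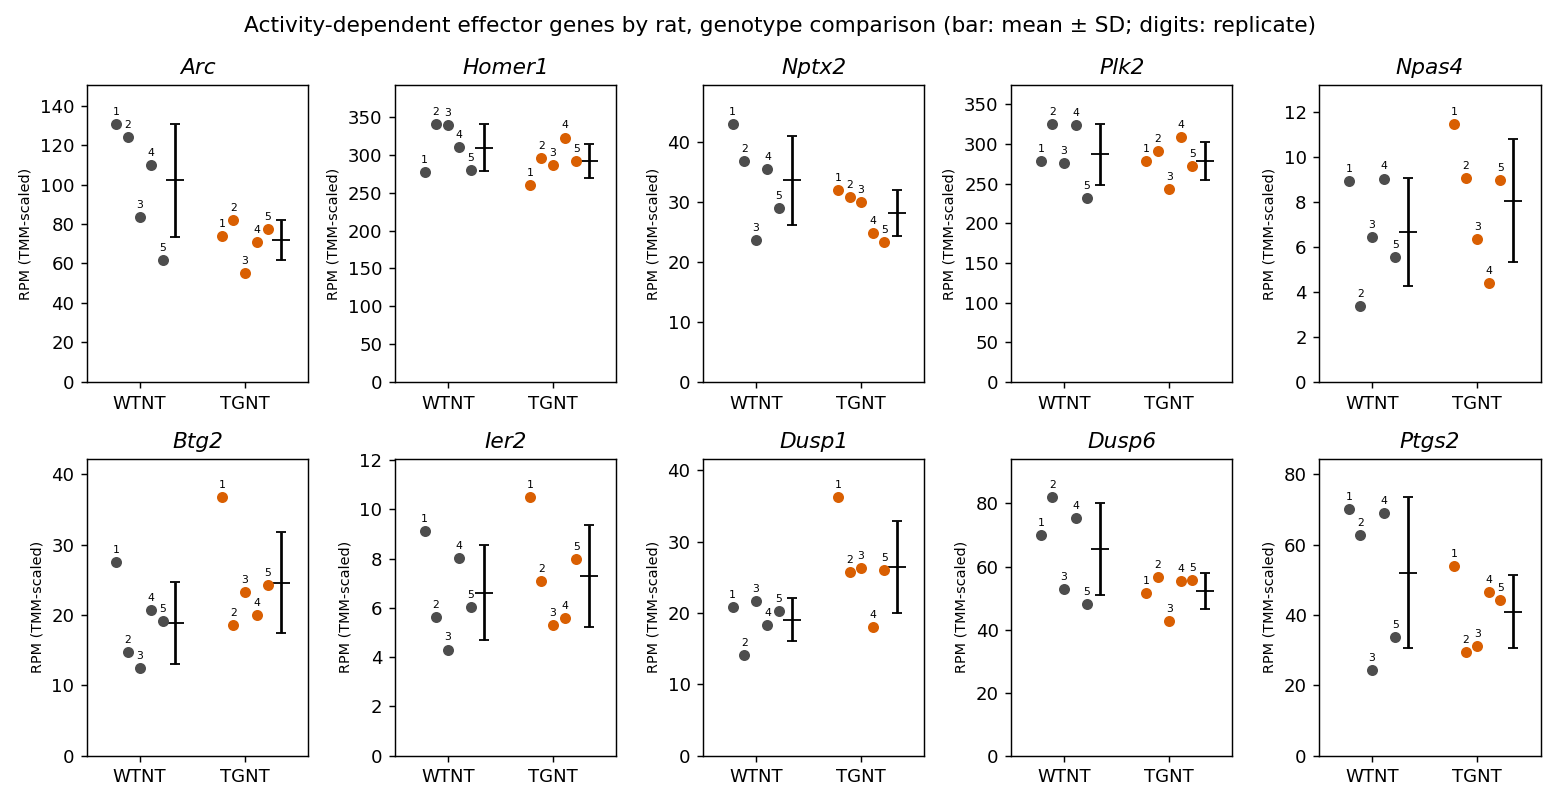
RPM (TMM-scaled, linear axis from 0) of the 10 effector genes in each of the 5 WTNT and 5 TGNT rats, with bars for the mean ± SD and digits for the replicate number. Arc lies lower in TGNT rats (55.0 to 82.2 RPM) than in 4 of the 5 WTNT rats, Dusp1 is above every WTNT rat in 4 of 5 TGNT rats, and every member overlaps between the groups.

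Among TGTR and TGNT rats, 0 of the 10 effector genes were called by edgeR, DESeq2 or limma. Of all 17168 genes, 0% were called by the quasi-likelihood test of edgeR. Before adjustment, Homer1, Dusp1, Arc and Btg2 were higher in TGTR than in TGNT rats. These 4 of 10 at an unadjusted p under 0.05, all higher, compare with 3.9% higher and 2.24% lower (6.14% in either direction) of the 12029 genes averaging at least 10 counts. The count of 4 became 2 without TGNT rat 1. In that fit 1207 of all 17168 genes passed the same p, against 571 to 1031 with each other rat left out. Members with groups that did not overlap numbered 0 of 10, against 1.45% of the 12029 genes (0.806% higher, 0.648% lower). They numbered 1 of 10 without TGNT rat 4, TGTR rat 2 or TGTR rat 4. Here too, leaving out a rat can only remove overlap, and the matching shares of all genes are not given. Of the members, 8 were higher and 2 lower in TGTR rats, and the median log2 fold change was 0.24, against 0.00025 over the genes with at least 10 counts.

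Homer1 had the lowest p of the 10. It was 133, 124, 129 and 139 RPM in TGNT rats 1 to 4, and in TGTR rats the lowest value was 137, the median 151 and the highest 156 RPM. In 5 of 6 TGTR rats it lay above every TGNT rat, and TGTR rat 2, the lowest, lay below TGNT rat 4 alone. The means were 131 ± 6.52 RPM (SD, n = 4) and 149 ± 6.45 RPM for the TGTR group (SD, n = 6). The log2 fold change was 0.19 (SE 0.0496, 95% interval 0.08 to 0.29, unadjusted p = 0.00241, adjusted p = 0.913 in edgeR), rank 44 by p. The exact two-sided permutation test of the means gave p = 0.00952, and Homer1 was the only member of the 10 below 0.05 in that test, with 2 members below 0.05 without TGNT rat 2 or TGTR rat 1 and 4 without TGTR rat 4. The difference was small, 1.14-fold, beside a within-group coefficient of variation of 4.598%.

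Arc was 56.1, 96.5, 61.2 and 87.5 RPM in TGNT rats 1 to 4, and in TGTR rats the lowest, median and highest values were 72.0, 108 and 140.0 RPM. TGTR rats 1, 3 and 6 lay above every TGNT rat, and TGTR rats 2, 4 and 5 lay within the TGNT range. The means were 75.3 ± 19.7 RPM (SD, n = 4) and 107 ± 26.7 RPM for the TGTR group (SD, n = 6). The fitted log2 difference was 0.51 (SE 0.195, 95% interval 0.09 to 0.94, unadjusted p = 0.0208, adjusted p = 0.964 in edgeR). The exact permutation test of the means gave p = 0.0667. Without TGNT rat 1 or TGNT rat 3 the unadjusted edgeR p was 0.0651 and 0.0700. Nptx2 ranged from 49.97 to 60.5 RPM in TGNT and from 34.3 to 64.7 RPM in TGTR rats, a log2 fold change of -0.07 (95% interval -0.35 to 0.21) that became 0.027 without TGTR rat 5. Plk2 ranged from 175 to 255 RPM in TGNT and from 204 to 270.2 RPM in TGTR rats, a log2 fold change of 0.13 (SE 0.107, 95% interval -0.10 to 0.37) that was 0.040 without TGNT rat 1 and 0.21 without TGNT rat 4.

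Npas4 had the largest log2 fold change of the 10 and the widest interval. It was 6.92, 8.31, 3.31 and 10.2 RPM in TGNT rats 1 to 4, and 4.42, 12.4 and 17.3 RPM at the lowest, median and highest of the TGTR rats. In 4 of 6 TGTR rats it lay above every TGNT rat, while TGTR rats 1 and 4 lay within their range. The log2 fold change was 0.71 (SE 0.346, 95% interval -0.04 to 1.46, unadjusted p = 0.0602 in edgeR), 0.46 without TGNT rat 3 and 0.93 without TGNT rat 4, with an unadjusted p of 0.00776 in edgeR without TGTR rat 4. Btg2 was 13.3, 17.0, 16.6 and 16.9 RPM in TGNT rats 1 to 4, and 14.8, 19.8 and 23.0 RPM at the lowest, median and highest of the TGTR rats. In 5 of 6 TGTR rats it was above every TGNT rat, and TGTR rat 4 lay below TGNT rats 2, 3 and 4. Its log2 fold change was 0.29 (SE 0.115, 95% interval 0.04 to 0.54, unadjusted p = 0.0249, adjusted p = 0.964 in edgeR), and the exact permutation test gave p = 0.0619. Without TGNT rat 1 the log2 difference was 0.22 (unadjusted p = 0.0868 in edgeR), and without TGTR rat 6 it was 0.24 (unadjusted p = 0.0576). Ier2 ranged from 5.25 to 6.31 RPM in TGNT and from 4.81 to 8.88 RPM in TGTR rats, a log2 fold change of 0.27 (SE 0.167, 95% interval -0.09 to 0.63), 0.35 without TGTR rat 4 (unadjusted p = 0.0332 in edgeR).

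Dusp1 was 12.4, 10.4, 10.7 and 15.001 RPM in TGNT rats 1 to 4, and 11.9, 19.1 and 24.7 RPM at the lowest, median and highest of the TGTR rats. In 4 of 6 TGTR rats it lay above every TGNT rat, and TGTR rats 1 and 4 lay within the TGNT range. The means were 12.1 ± 2.11 RPM (SD, n = 4) and 18.4 ± 5.19 RPM for the TGTR group (SD, n = 6). The fitted log2 difference was 0.60 (SE 0.203, 95% interval 0.17 to 1.04, unadjusted p = 0.0107, adjusted p = 0.964 in edgeR). The exact permutation test of the means gave p = 0.0714. The other MAP kinase phosphatase, Dusp6, was 30.1, 42.6, 36.1 and 44.6 RPM in TGNT rats 1 to 4. It ranged from 31.6 to 54.7 RPM in TGTR rats, with a median of 43.3 RPM. Only TGTR rats 1 and 3 exceeded every TGNT rat, and the log2 fold change was 0.21 (SE 0.139, 95% interval -0.09 to 0.51, unadjusted p = 0.151 in edgeR). It was 0.12 without TGNT rat 1, 0.14 without TGTR rat 1 and 0.29 without TGTR rat 5 (unadjusted p = 0.0219 in edgeR). Ptgs2 ranged from 21.99 to 49.0 RPM in TGNT and from 24.2 to 57.5 RPM in TGTR rats, a log2 fold change of -0.03 (SE 0.235, 95% interval -0.54 to 0.48) whose sign turned without TGNT rat 2, 3 or 4 or TGTR rat 2 or 5.

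**Figure D2:**
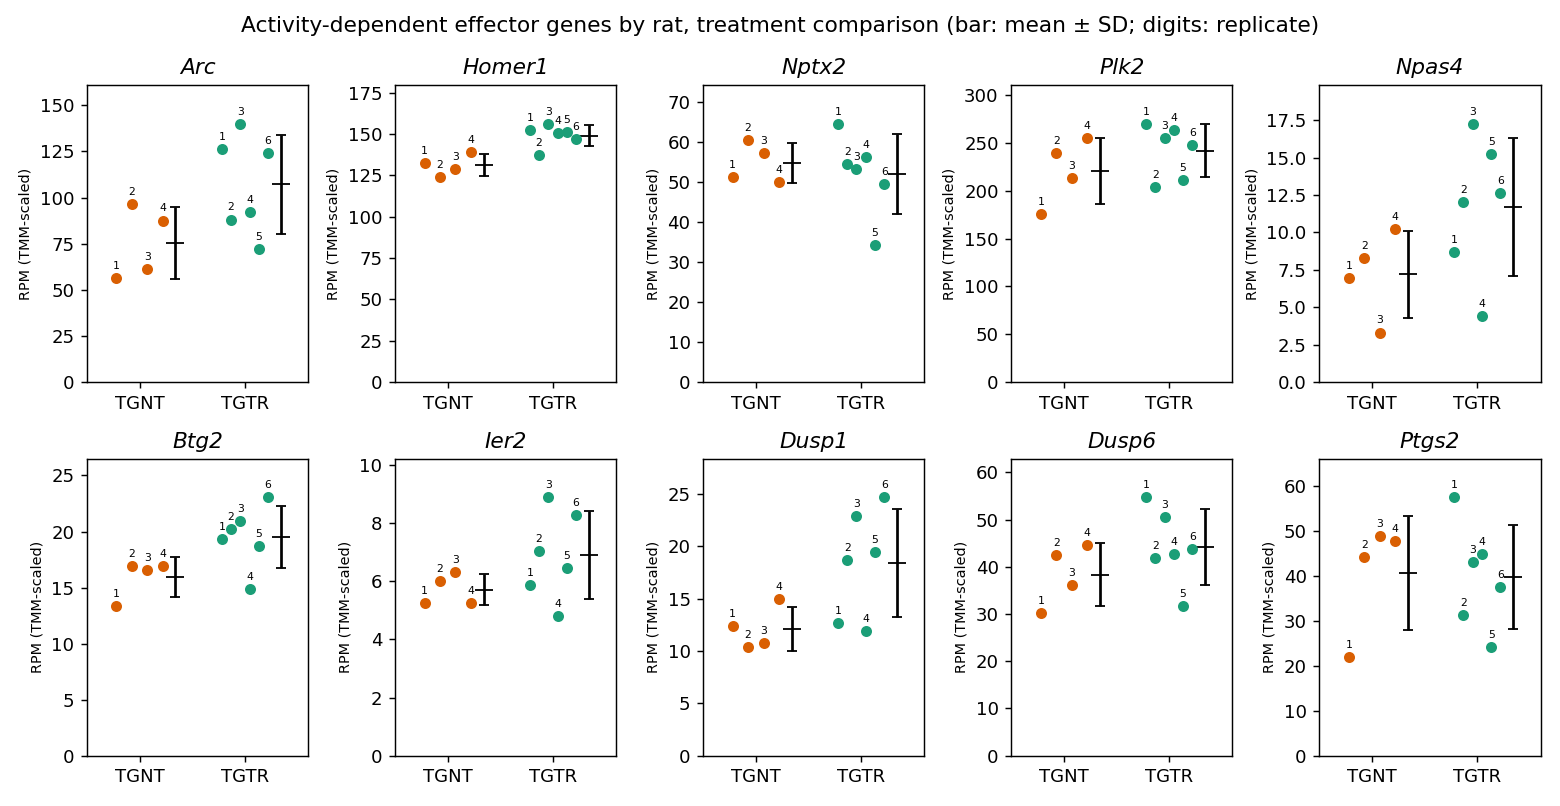
RPM (TMM-scaled, linear axis from 0) of the 10 effector genes in each of the 4 TGNT and 6 TGTR rats, with bars for the mean ± SD and digits for the replicate number. Homer1 and Btg2 lie above every TGNT rat in 5 of 6 TGTR rats, Dusp1 and Npas4 in 4 of 6, and Nptx2 and Ptgs2 have similar means in both groups.

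Side by side, the comparisons gave different signs for Arc, Dusp6, Homer1 and Plk2. They gave the same sign for Dusp1, Btg2, Npas4, Ier2, Nptx2 and Ptgs2. The log2 fold change of Arc was -0.50 in TGNT against WTNT rats and 0.51 in TGTR against TGNT rats, and that of Dusp6 was -0.32 and 0.21. Homer1 had -0.08 and 0.19, and Plk2 -0.04 and 0.13. Dusp1 had 0.49 and 0.60, Btg2 0.41 and 0.29, Npas4 0.31 and 0.71, and Ier2 0.17 and 0.27. Both values were negative for Nptx2 (-0.24 and -0.07) and Ptgs2 (-0.33 and -0.03). The sign turned with single rats left out for Plk2 in the genotype comparison and for Nptx2 and Ptgs2 in the treatment comparison. The comparisons rest on different TGNT rats and separately scaled tables, and the difference between the 2 fold changes of a gene was not tested.

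**Figure D3:**
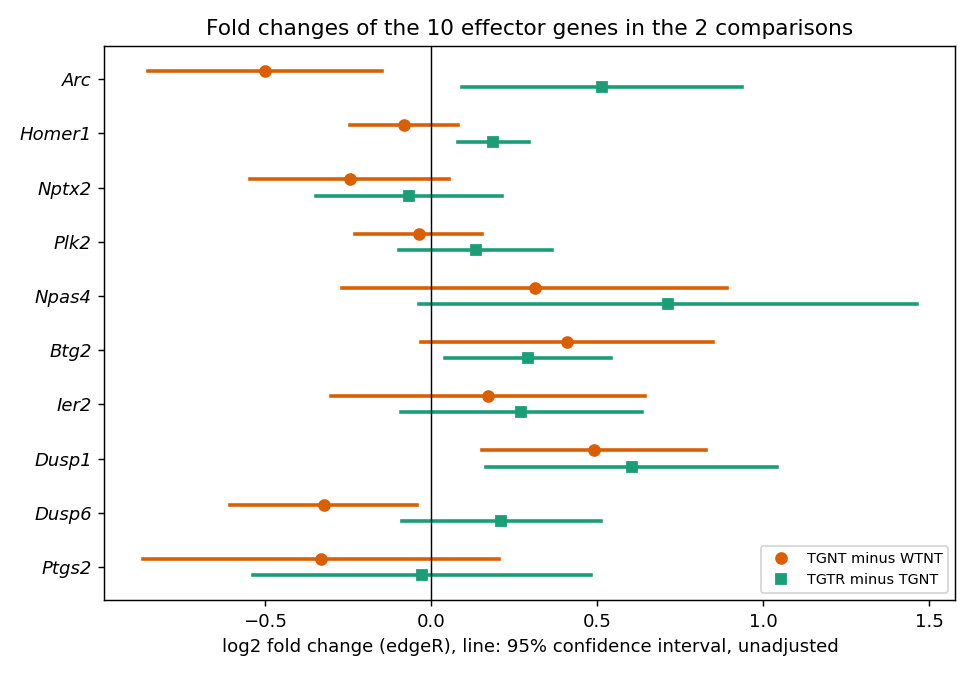
log2 fold change (edgeR) of each effector gene with its 95% interval, for TGNT minus WTNT and for TGTR minus TGNT. Intervals of Arc (-0.85 to -0.15), Dusp6 and Dusp1 exclude 0 in the first comparison and those of Arc (0.09 to 0.94), Homer1, Dusp1 and Btg2 in the second, before any adjustment over genes.

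Several members varied more between rats of the same group than most genes did. In the genotype comparison the within-group coefficient of variation was 34.9% for Npas4, 34.2% for Ptgs2, 30.1% for Btg2 and 28.8% for Ier2, against a median of 11.8% and a 75th percentile of 18.5% over the genes with at least 10 counts. Among TGTR and TGNT rats it was 39.9% for Npas4, 29.9% for Ptgs2, 25.4% for Arc and 24.5% for Dusp1, against a median of 9.43% and a 75th percentile of 16.3%. Homer1 was the steadiest member in both, at 8.92% and 4.598%, below the median gene each time. Npas4 and Ier2 have the lowest counts, so counting error forms part of their spread.

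Pairs of members were then compared over rats. After centring each group, 33 of the 45 pairs of members had a positive Pearson correlation of log2 RPM over the 10 rats of the genotype comparison (median r = 0.28), and 32 of 45 over the 10 rats of the treatment comparison (median r = 0.24). The sign was the same in both for 34 of 45 pairs. Of 45 exact permutation tests in each comparison, in which rats were exchanged within groups, 10 and 10 had an unadjusted p under 0.05 and 0 and 0 passed after Benjamini-Hochberg adjustment over the 45. Of the 10 in the genotype comparison, 7 were positive and 3 negative, and the negative ones paired Homer1 with Btg2 (r = -0.86), Dusp1 (r = -0.72) and Ier2 (r = -0.71), against -0.16, 0.18 and -0.15 in the treatment comparison. The same share over pairs of other genes was not computed. All members of a rat come from 1 library and share its depth and dissection.

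The closest pair in both comparisons was Arc with Dusp6, and it and the 2 pairs that follow were chosen after their values were seen. For Arc and Dusp6, r was 0.93 over the 10 rats of the genotype comparison (exact permutation p = 0.00507, adjusted p = 0.0760; rho = 0.90, exact permutation p = 0.00403, adjusted p = 0.135) and 0.90 over the 10 rats of the treatment comparison (exact permutation p = 0.00121, adjusted p = 0.0527; rho = 0.90, exact permutation p = 0.00434, adjusted p = 0.174). Without the 2 rats farthest from the median of Arc, r was 0.82 and 0.81. Dusp6 and Plk2 had r = 0.89 and 0.83 (exact permutation p = 0.00194 and 0.00469, adjusted p = 0.0760 and 0.0527; rho = 0.85 and 0.84, exact permutation p = 0.0117 and 0.00776), and r = 0.72 and 0.84 without the 2 farthest rats. Btg2 and Ier2 had r = 0.87 and 0.81 (exact permutation p = 0.00403 and 0.00897, adjusted p = 0.0760 and 0.0807; rho = 0.81 and 0.78, exact permutation p = 0.0135 and 0.0227), and r = 0.67 and 0.68 without the 2 farthest. No pair of the 45 passed adjustment in either comparison.

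Single rats stood out across the members. TGNT rat 1 of the genotype comparison was the highest of its group in 6 of 10 members, Dusp1, Btg2, Ier2 and Npas4 among them. WTNT rat 5 lay below its group mean in 8 of 10 members, Arc and Dusp6 among them. In the other table, TGTR rat 3 lay above its group mean in 10 of 10 members, and the untreated TGNT rat 1 was the lowest of its own group in 5. TGTR rats 4 and 5 were each the lowest of their group in 4 members, and in different ones, TGTR rat 4 in Npas4, Btg2, Ier2 and Dusp1 and TGTR rat 5 in Arc, Nptx2, Dusp6 and Ptgs2.

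**Figure D4:**
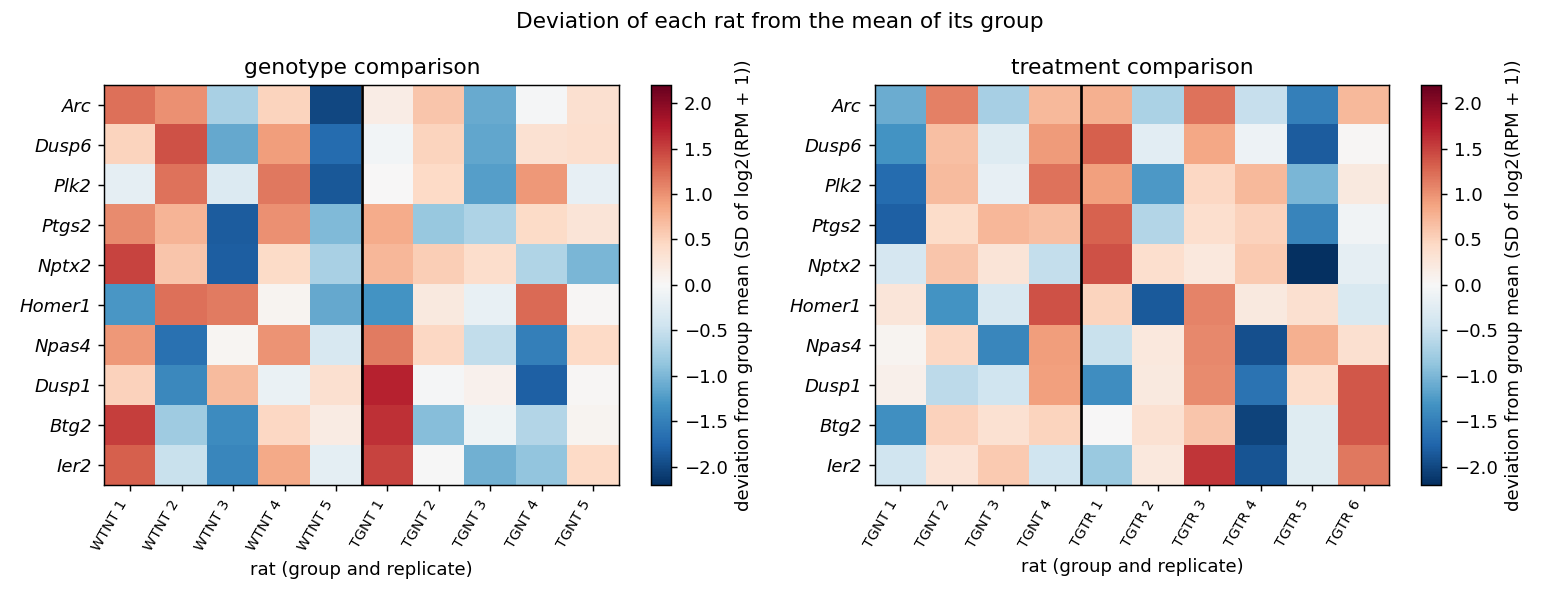
Deviation of each rat from its own group mean for every effector gene (log2 RPM, color scale), with rats as columns and genes as rows, for both comparisons. TGTR rat 3 is above its group mean for 10 of 10 genes, and TGNT rat 1 of the genotype comparison is the highest of its group in 6.

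The other genes of the activity response were read from lists of known members. Of 14 immediate early transcription factors, 2 were higher and 12 lower in TGNT than in WTNT rats (median log2 fold change -0.22), with 0 called by the quasi-likelihood test, and 5 lower and 0 higher at an unadjusted p under 0.05, against 1.9% and 1.99% of all genes. The lowest p-values were those of Egr2 (7.95 ± 1.71 RPM in WTNT and 3.94 ± 1.13 RPM in TGNT, SD, n = 5 each, log2 fold change -1.01), Nr4a1 (log2 fold change -0.46) and Egr1 (log2 fold change -0.58), each with an adjusted p of 1 in edgeR's quasi-likelihood test. Egr2 was called as lower by the likelihood ratio and exact tests of edgeR, but under no other alternative. In TGTR against TGNT rats, 11 of the 14 were higher and 3 lower (median 0.26), with 0 called under any test run, and 6 higher and 0 lower at an unadjusted p under 0.05, against 3.9% and 2.24%. The lowest p-values there were those of the nuclear receptor Nr4a2 (log2 fold change 0.44), Egr4 (0.41) and Egr2 (0.84), with adjusted p-values of 0.941 to 0.957 in edgeR.

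Of 26 other activity-induced genes with at least 10 counts, 8 were higher and 18 lower in TGNT than in WTNT rats (median log2 fold change -0.13). At an unadjusted p under 0.05, 0 were higher and 6 lower, against 1.99% and 1.9% of all genes with at least 10 counts. The 6 were led by Arl5b (-0.27), the pseudokinase Trib1 (-0.55) and the ERK phosphatase Dusp5 (-0.55). In TGTR against TGNT rats, 16 of 28 were higher and 12 lower (median 0.05). At an unadjusted p under 0.05, 6 were higher and 0 lower, against 3.9% and 2.24% of all genes with at least 10 counts. The 6 higher genes were led by Ier5 (0.42), the kinase Sik1 (0.43) and the matrix protein Ccn1 (1.11). The 6 became 3 without TGNT rat 2, where 571 of all 17168 genes passed the same p, against 654 to 1207 with each other rat left out. No gene of this list was called in either comparison.

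In the genotype comparison, family members and partners of the 10 genes were split more evenly. In TGNT against WTNT rats 15 of 28 were higher and 13 lower. At an unadjusted p under 0.05, 1.99% of all genes with at least 10 counts were higher and 1.9% lower. In the list 0 were higher and 2 lower, Dusp7 (log2 fold change -0.24) and Plk3 (-0.51), with Btg1 next (0.18). These 2 became 4 without TGNT rat 2, and 1 without WTNT rat 5 or without TGNT rat 1. Of all 17168 genes, 759, 877 and 595 passed the same p in those fits. In TGTR against TGNT rats 20 of 31 were higher and 11 lower. At an unadjusted p under 0.05, 3.9% of all genes with at least 10 counts were higher and 2.24% lower. In the list 1 was higher, the scaffold Homer2 (0.26), and 1 lower, the pentraxin receptor Nptxr (-0.23), with Ier5l next (0.27). These 2 became 5 without TGNT rat 1, 4 without TGTR rat 5, and 1 without TGNT rat 2, TGTR rat 1, TGTR rat 3 or TGTR rat 6. Of all 17168 genes, 1207 passed the same p without TGNT rat 1, 900 without TGTR rat 5, and 571 to 844 in the other fits named.

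Of 25 genes of ERK and CREB signalling, 7 were higher and 18 lower in the TGNT group. At an unadjusted p under 0.05, 1.99% of all genes with at least 10 counts were higher and 1.9% lower. In the list 2 were higher and 0 lower, the kinases Rps6ka5 (log2 fold change 0.19) and Mapk3 (0.23), with Camk4 next (-0.42). These 2 became 8 without WTNT rat 3 and 4 without TGNT rat 2. Of all 17168 genes, 986 and 759 passed the same p in those fits, against 358 to 877 with each other rat left out. In TGTR against TGNT rats 11 were higher and 14 lower. At an unadjusted p under 0.05, 3.9% of all genes with at least 10 counts were higher and 2.24% lower. In the list 0 were higher and 2 lower, the calcium channel subunits Cacna1c (-0.24) and Cacna1d (-0.14). These 2 became 4 without TGNT rat 1 and 1 without TGNT rat 3, where 1207 and 654 of all 17168 genes passed the same p. No gene of either list was called.

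**Figure D5:**
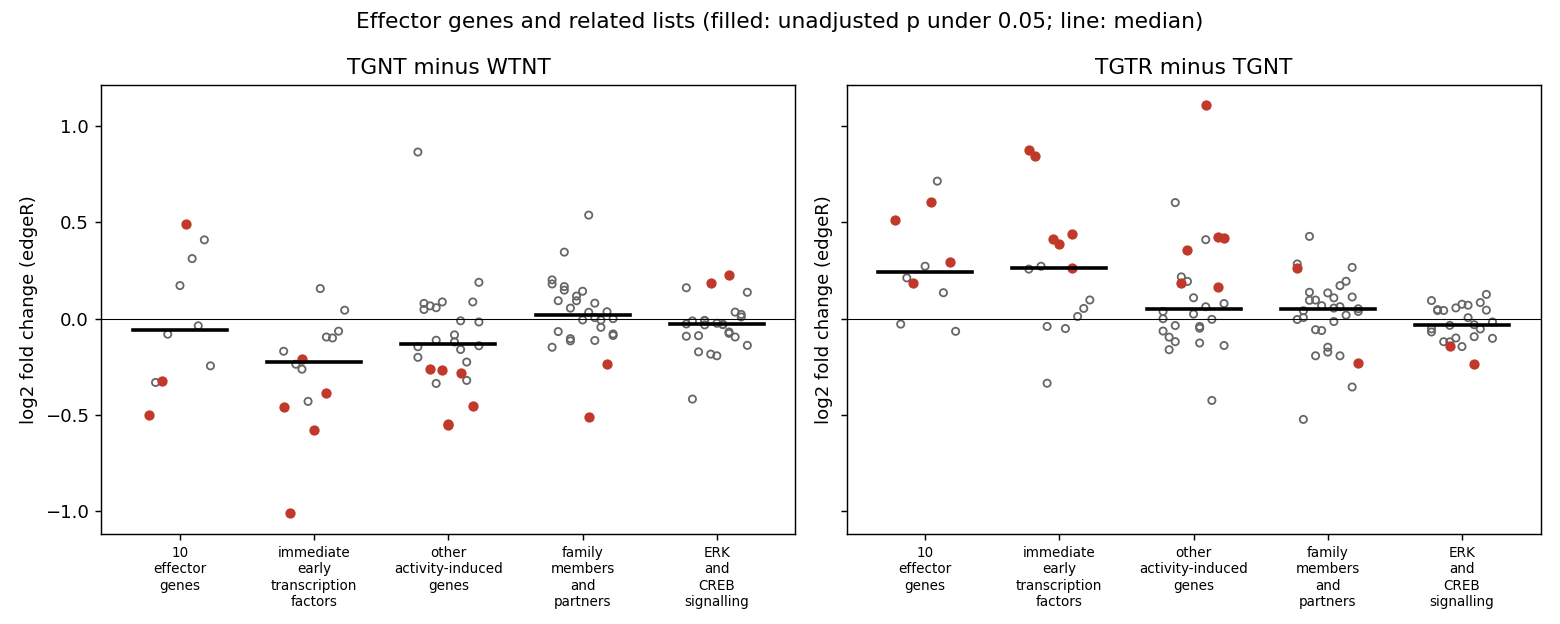
log2 fold change (edgeR) of every gene of the 10 effectors and of 4 related lists, with a line at each median and filled points for an unadjusted p under 0.05. The medians of the 14 immediate early transcription factors are -0.22 in TGNT minus WTNT and 0.26 in TGTR minus TGNT, and those of ERK and CREB signalling are -0.03 in both.

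Markers of the cell types a hippocampal sample can hold were read beside these results. In the genotype comparison the 5 oligodendrocyte markers were lower in TGNT rats in 5 of 5 (median log2 fold change -0.27), with sums from 4202 to 9494 RPM (WTNT) and from 3952 to 7164 RPM (TGNT), and CA1 pyramidal markers were lower in 4 of 4 (528 to 756 RPM and 398 to 723 RPM), as were CA3 markers in 3 of 3 (289.8 to 569 RPM and 272 to 432 RPM). Mature neuron markers were lower in 4 of 5 (5343 to 5713 RPM and 5059 to 5696 RPM, median log2 fold change -0.09). Microglia markers were higher in 5 of 5 (130.1 to 141 RPM and 136 to 147 RPM, median 0.10). Neither of these 2 lists held a gene at an unadjusted p under 0.05 in edgeR. Dentate granule markers were lower in 2 of 3, with a sum of 138 RPM in WTNT rat 3 against 255 to 329 RPM in the other WTNT rats and 224 to 386 RPM in TGNT rats, and thalamus and habenula markers in 2 of 4 (35.5 to 90.5 RPM and 53.9 to 74.8 RPM). The part of these markers in the differences of the effector genes was not tested. In such bulk samples, fewer cells of a type and less RNA per cell cannot be told apart.

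Summed choroid plexus markers of the treatment comparison were 2781 RPM in TGTR rat 5 and 129 RPM in TGTR rat 6, against 2.47 to 15.6 RPM in the other 8 rats. Thalamus and habenula markers did not overlap in sum, at 34.3 to 39.5 RPM in untreated and 44.9 to 59.1 RPM in treated rats. Of 4 markers, 2 were higher and 2 lower, with Gbx2 at 0 counts in every rat. Mean levels in untreated and treated rats were 12.6 and 13.8 RPM for Tcf7l2, 6.42 and 4.84 RPM for Lhx9, and 1.62 and 1.47 RPM for Rgs16. The sum therefore follows Slc17a6 and not the list as a whole. Within that list Slc17a6, a vesicular glutamate transporter of subcortical neurons, was 17.0 ± 3.81 RPM (SD, n = 4) in untreated and 31.0 ± 5.49 RPM (SD, n = 6) in treated rats (log2 fold change 0.87, unadjusted p = 9.747e-05, adjusted p = 0.400 in edgeR's quasi-likelihood test), without overlap, and it was called by DESeq2 and, within edgeR, by the likelihood ratio and exact tests, but under no other alternative. Without TGTR rat 5 the log2 fold change of Arc was 0.61, of Homer1 0.18, of Dusp1 0.59 and of Btg2 0.30. GABA neuron markers were higher in TGTR rats in 5 of 5 (447 to 559 RPM in untreated and 497 to 604 RPM in treated rats, median log2 fold change 0.16). So were endothelial markers (203 to 232 RPM and 219 to 257 RPM, median 0.11) and oligodendrocyte markers (3724 to 5977 RPM and 4334 to 6718 RPM, median 0.225), each in 5 of 5. Mature neuron markers were lower in 5 of 5 (4229 to 4929 RPM and 3946 to 4561 RPM, median -0.05), with no gene at an unadjusted p under 0.05 in edgeR. CA3 markers were lower in 3 of 3 (275 to 536 RPM and 247 to 466 RPM, median log2 fold change -0.26) and astrocyte markers in 5 of 5 (2947 to 3359 RPM and 2716 to 3565 RPM, median -0.05), microglia markers in 4 of 5 (168 to 189 RPM and 165 to 185 RPM), and dentate granule markers in 2 of 3 (198 to 252 RPM and 177 to 278 RPM). CA1 pyramidal markers were higher in 3 of 4 (699 to 941 RPM and 598 to 1068 RPM, median log2 fold change 0.14). Summed blood markers were 1290.4 RPM in TGTR rat 4, against 172 to 265 RPM in the other 9 rats. Without TGTR rat 4 the log2 fold change of Arc was 0.55, of Homer1 0.18, of Dusp1 0.70 and of Btg2 0.36. The part of these markers in the results was not tested. Mature neuron markers summed to at least 3946 RPM in every rat of both comparisons.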

How the data were processed

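Hippocampal RNA of 20 rats was isolated with the RNeasy Mini Kit and made into libraries with the Kapa Stranded mRNA Kit. The submitters' processing notes list bcl2fastq 2.17, Bowtie2 2.1.0, RSEM 1.2.15, edgeR and build rn6, without roles. Each comparison has its own pair of deposited tables, 1 of estimated counts per gene and 1 of signal values, which are RPM that the authors scaled by TMM. Estimated counts were rounded; all values of the members were whole except Btg2 in 1 rat. Each table was fitted on its own with the quasi-likelihood test of edgeR 4.0.16 (R 4.3.3, TMM factors, all 17168 genes, two-sided, Benjamini-Hochberg over all genes), with DESeq2 1.42.0 and limma 3.58.1 as alternatives. Shares, medians and lists cover genes averaging at least 10 counts. Single values were compared by exact permutation of the rats' mean RPM, 10 tests per comparison. The code was tested on simulated data. The sources used here say little beyond separate rats, so p-values measure the spread between these samples. In 41 pairs of libraries of the same group, counts differed by more than sampling noise (chi-square per degree of freedom 2.16 to 28.8). The members, lists and tests were chosen with earlier results of these data known. Named genes are the 10 members, the 3 genes of lowest p in each related list, and the 8 genes closest to the members' mean over rats; 2 genes that this rule names are not reported here. Of the listed genes, Tiparp, Npas3, Braf, Mef2c, Dsp and Cdh24 were not matched, and older symbols matched Ccn1 (Cyr61) and Slco1a4 (Slco1a2). Promoters come from RefSeq GRCr8.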

Additional observations from a re-analysis of the deposited data

Results flagged for a closer look

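Btg2 in TGNT rat 1 of the treatment comparison was 13.3 RPM, apart from the other 3 TGNT rats, of which the nearest was 16.6 RPM. The gap was 0.90 of the whole range of the group, more than Dixon's test allows at the 95% level for 4 samples. Chance alone marks about 1 in 20 groups, and all members were tested in each of the 4 groups of rats. The same rat was the lowest of its group in 5 of the 10 members, and without it the log2 fold change of Btg2 was 0.22 in place of 0.29. No cause was tested.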

How the results depend on the processing

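No effector gene was called in either comparison under any alternative run. Over other tests, scalings, filters and the block, 120 of 120 fold changes of the members kept their direction in the genotype comparison and 117 of 120 in the treatment comparison. With each rat left out in turn, 97 of 100 and 94 of 100 did. Members at an unadjusted p under 0.05 numbered 3 in the genotype comparison, 1 in limma-trend with 1 or 0.1 RPM added before log2, and 2 to 5 with single rats left out. In the treatment comparison they numbered 4, and 2 to 6 with single rats left out. Over all 17168 genes, those fits without single rats gave 358 to 986 genes in the genotype comparison and 571 to 1207 in the treatment comparison. The exact permutation test gave 1 member in each comparison, with ranges of 0 to 2 and 1 to 4, and members whose groups did not overlap numbered 0, with ranges of 0 to 1 and 0 to 1. Over all genes, 2 were called in the genotype comparison and 4 by the exact and likelihood ratio tests of edgeR, and 0 in the treatment comparison and 4, 5 and 3 by those tests and DESeq2, with no member among them and, of the lists, Egr2 (genotype) and Slc17a6 (treatment). Signs turned for Plk2 in the genotype comparison, to 0.011 without WTNT rat 2, 0.0014 without WTNT rat 4 and 0.0020 without TGNT rat 3 (lowest -0.10). In the treatment comparison they turned for Nptx2, to 0.027 without TGTR rat 5 (lowest -0.14), and for Ptgs2, to 0.0050 with scaling by library size only, 0.0085 without TGNT rat 2, 0.072 without TGNT rat 3, 0.052 without TGNT rat 4, 0.034 without TGTR rat 2 and 0.076 without TGTR rat 5 (lowest -0.23). The cause was not tested.

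Replicate numbers are shared between groups. Same-numbered rats had correlations of their deviations from the group mean of -0.22 to 0.38 in the genotype comparison and -0.60 to 0.15 in the treatment comparison. In the genotype comparison some rats, but not every rat, correlated best with their own number, and in the treatment comparison no rat did. With so few rats, these correlations cannot decide whether the numbers pair rats. With the replicate number as a block, 4 members in the genotype comparison and 2 in the treatment comparison had an unadjusted p under 0.05. Over all 17168 genes, 553 and 406 did. In the treatment comparison this fit left out TGTR rats 5 and 6, whose numbers no untreated rat shares. There the log2 fold changes of Nptx2 (0.061) and Ptgs2 (0.13) changed sign. Without TGTR rat 5 alone, and with no block, they were 0.027 and 0.076. The effect of the block apart from the rats left out was not tested. Depth limits Npas4 and Ier2 most, at 33 and 34 counts in their lowest rats.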

Other observations

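The genes whose level followed the members' mean deviation most closely over the 10 rats differed between the comparisons. In the treatment comparison, 3 of the 8 closest of 11389 genes were immediate early transcription factors, Junb (r = 0.93), Egr1 (r = 0.91) and Nr4a1 (r = 0.90), beside the secretory chaperone gene Scg5 (r = 0.95), Fbxw11 (0.93), Synrg (0.91) and Dohh (0.90). In the genotype comparison the 8 closest of 10613 genes were Pwwp2b (r = 0.99), Taldo1 (0.97), Gpr176 (0.97), LOC502894 (0.96), Sec11a (0.96), Pcdhgb8 (0.96), Limd2 (0.96) and Kank2 (0.96), with no immediate early transcription factor. These correlations describe 10 rats each, were ranked from all those genes, and share library and depth with the members.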
